A study of Mus musculus with 12 samples.

Results

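Cxcl5, Cxcl3, Cxcl1 and Cxcl2 encode the secreted CXC chemokines that draw neutrophils into inflamed tissue in the mouse, and the open chromatin around these 4 genes was examined by ATAC-seq, in which a transposase cuts and tags accessible DNA. Peaks of all 12 deposited lists were merged where they overlapped or touched, regions found in at least 2 lists were kept, and those within 50 kb of the span of a member gene were taken, which gave 14 regions of 76042 in all. The genes lie in a cluster on chromosome 5 of the mm10 build, and Cxcl1, Cxcl2 and Cxcl3 are transcribed in the direction of rising coordinates. Cxcl5 (gene ID 20311) spans 90759298 to 90761625, Cxcl3 (330122) spans 90786101 to 90788093, Cxcl1 (14825) spans 90891245 to 90893121 and Cxcl2 (20310) spans 90903899 to 90905938. The farthest region inside the limit lay 41.0 kb from Cxcl5 and was in 4 lists, and the nearest outside it lay 58.6 kb from Cxcl5 and was in 6.

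The cells were RAW264.7, a mouse macrophage line, made into stable lines in which doxycycline switches on Nur77 (the orphan nuclear receptor of the Nr4a1 gene) or, as the control, green fluorescent protein (GFP). Doxycycline at 1 µg/ml for 18 h was given to all groups, so the untreated groups carried it too, and LPS (lipopolysaccharide, a component of the bacterial outer membrane) then followed at 500 ng/ml for 1 h, or was left out. The 4 groups of 3 libraries were GFP untreated, GFP with LPS, Nur77 untreated and Nur77 with LPS. Each line is a transfected derivative of an immortal line, the promoter driving the insert beyond its response to doxycycline is not given in the sources used here, and nothing states that replicates were separate cultures, so the p-values cover only the scatter among these libraries, possibly technical in part. All 8 macrophage marker genes examined (Adgre1, Csf1r, Cd68, Itgam, Spi1, Ptprc, Lyz2 and Cd14) had a region within 1000 bp called in all 12 libraries, against 2 of 4 T cell, 2 of 4 B cell, 2 of 5 neutrophil, 2 of 4 fibroblast and 0 of 4 epithelial marker genes.

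Macrophages sense LPS through Toll-like receptor 4, which activates the transcription factors NF-kB and AP-1, and Cxcl1 and Cxcl2 are among the earliest genes they induce. The secreted proteins share a Glu-Leu-Arg motif ahead of their CXC cysteines and bind the receptor CXCR2 on neutrophils. Nur77 is itself an early response gene of macrophages and is known for restraining inflammatory gene expression.

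The promoters of 3 of the 4 genes were matched in the RefSeq table (GRCm38.p6), Cxcl5 being the other. They are shown because they share elements yet differed in how often a peak was called over them. Each line gives the 150 bases before the annotated start, on the plus strand of chromosome 5, and the capitals mark the NF-kB letters GGGAATTTCC and the TATA-like letters ATAAAAG. The stretches are chr5:90785951-90786100 for Cxcl3, chr5:90891095-90891244 for Cxcl1 and chr5:90903749-90903898 for Cxcl2.
Cxcl3: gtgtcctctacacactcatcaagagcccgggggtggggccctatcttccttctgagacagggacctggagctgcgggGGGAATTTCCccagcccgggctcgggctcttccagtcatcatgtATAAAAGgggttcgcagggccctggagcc
Cxcl1: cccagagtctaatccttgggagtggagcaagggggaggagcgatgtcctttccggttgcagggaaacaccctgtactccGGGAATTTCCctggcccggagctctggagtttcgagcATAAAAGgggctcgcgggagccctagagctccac
Cxcl2: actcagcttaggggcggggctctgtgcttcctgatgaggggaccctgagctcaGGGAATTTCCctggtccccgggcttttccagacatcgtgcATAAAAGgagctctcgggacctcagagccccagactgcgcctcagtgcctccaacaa

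All 3 promoters held both elements on the plus strand. The GGGAATTTCC letters occupied bases -73 to -64 before the start in Cxcl3, -71 to -62 in Cxcl1 and -97 to -88 in Cxcl2, and they occurred on either strand in 29 of 32851 RefSeq windows of 300 bases (0.0883%), each running from 250 bases before a start to 50 after it. The looser NF-kB form (GGG, any 5 bases, then CC) was found 5 times in the Cxcl3 window, 4 times in Cxcl1 and 3 times in Cxcl2, overlapping matches on both strands included, and in 50.8% of all windows. The TATA-like letters ATAAAAG were in 5.42% of all windows, and TATAAA (13.6%) was in that of Cxcl3 only among the 3. The letters of AP-1 (TGANTCA, in 7.81% of all windows), C/EBP (TTGCNNAA, 10.8%) and the Nur77 element (AAAGGTCA, 1.51%) were in 0 of the 3 windows. The spelled-out forms GGGAATTTCC and ATAAAAG were chosen after the promoters had been read, and a match is a description of letters, not a bound site. The longest run shared between the windows was 20 bases, between Cxcl1 and Cxcl2, and 13 bases between Cxcl3 and either of them. These runs lay after the start and outside the bases shown. That of 20 bases began at base 31 of Cxcl1 and base 11 of Cxcl2, and those of 13 bases at base 38 of Cxcl3.

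The 3 promoters differed in their calls. A peak lay over the window of Cxcl2 in 12 of 12 libraries, over that of Cxcl3 in 4 of 12 and over that of Cxcl1 in 0 of 12. Of 21262 windows of protein-coding genes, 45.8% had a peak in all 12 lists, 8.41% in 1 to 11 lists and 45.7% in 0 lists. No kept region lay within 1000 bp of Cxcl1 or of Cxcl5.

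The lists held 36184 (Nur77 untreated, replicate 2) to 81467 (GFP with LPS, replicate 3) peaks, a 2.25-fold range. Their even spacing of fold values implied background heights of 0.4 to 1.45 reads, and the weakest listed summit stood at 5 to 8 reads depending on the library. Where a list lacks a weak region, the region was therefore undetected there, and closed chromatin is not shown. The number of the 14 regions called per library ran from 7 in the shortest list and in GFP with LPS, replicate 1 (48275 peaks), to 13 in the longest list and in Nur77 with LPS, replicate 1 (59858 peaks). Per group it was 10.3 ± 1.15 in GFP untreated, 10 ± 3 in GFP with LPS, 9.67 ± 2.31 in the untreated Nur77 line and 10.3 ± 2.31 in that line with LPS (SD, n = 3 each). In every library 7 of the 14 regions were called, as were 34.7% of all kept regions, and the other 7 were called in 4 to 8 libraries.

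**Figure D1:**
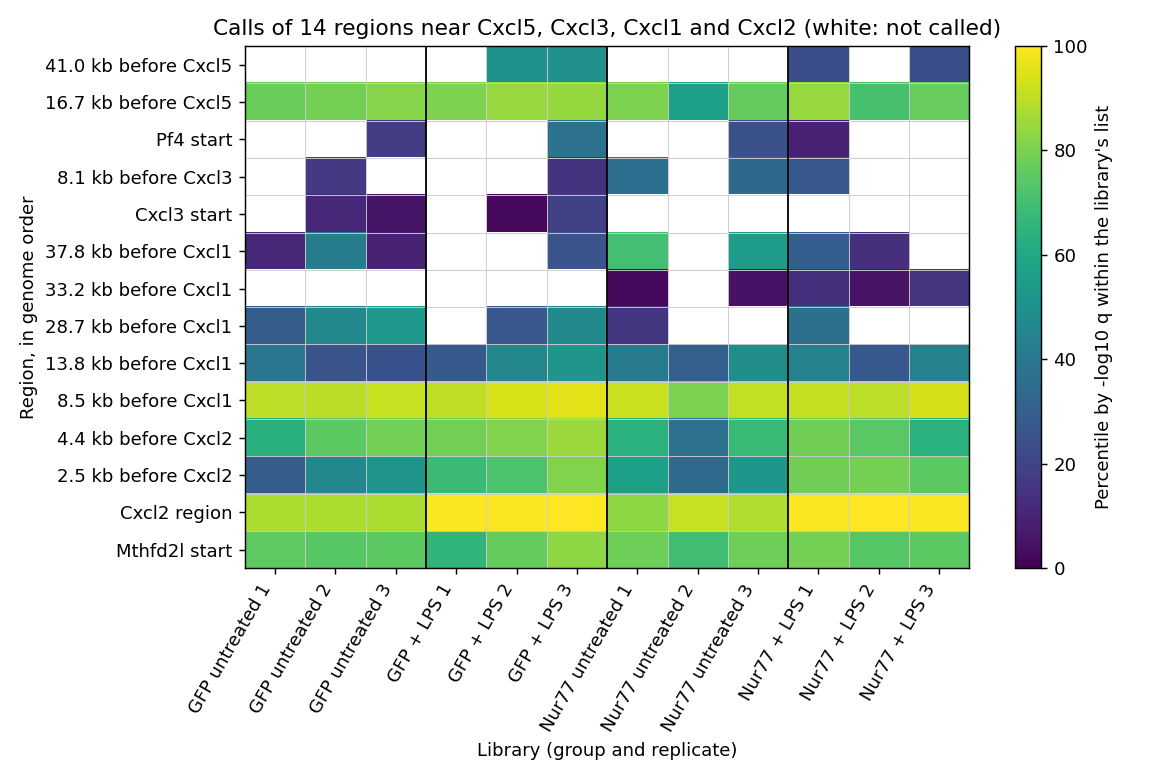
Calls of the 14 regions (vertical axis, genome order) in the 12 libraries (horizontal axis), coloured by percentile of -log10 q within each library's own list, white where no peak was called. The Cxcl2 region is near the top of the scale in the 6 LPS libraries, and calls of the 7 regions found in 4 to 8 libraries lie between 2.12 and 70.1.

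LPS libraries were compared with untreated ones first. The region over Cxcl2 and a region 2.5 kb before it rose in rank, and the peak over the Cxcl2 start was longer in every LPS library than in any untreated one. No region near Cxcl5, Cxcl3 or Cxcl1 alone passed a test. Because lists of different length cannot be compared by rank, a percentile was computed for each library among the 26378 regions called in all 12 lists, so that every library ranked the same regions by the -log10 q of its list (100 is the top). LPS and untreated libraries (6 against 6) were compared by a two-sided exact permutation test over the 12 libraries, adjusted by Benjamini-Hochberg over all 26378 regions. In that test 2 of the 7 regions rose and 0 fell, where 9.45% of all regions rose and 8.13% fell. At an unadjusted p under 0.05 in the same permutation test 4 of the 7 were higher (14.5% of all) and 0 lower (16.8% of all).

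The Cxcl2 region spanned 90902760 to 90910221, from 1139 bp before the start of the gene to past its end. Its percentile among the common regions was 74.5, 70.2 and 70.3 in GFP untreated and 64.7, 88.5 and 75.3 in Nur77 untreated. With LPS it was 99.05, 99.05 and 99.34 in the GFP line and 99.11, 99.75 and 98.76 in the Nur77 line. All 6 LPS libraries lay above all 6 untreated ones, as in 6.31% of the common regions. The difference was 25.3 percentile points (untreated 73.9 ± 8.1, LPS 99.2 ± 0.34, SD, n = 6 each, exact permutation p = 0.00216, the smallest that 6 against 6 can give, adjusted p = 0.0206). With the replicate number as a block this region did not pass, nor did any of the 26378 regions.

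Within a list the fold orders regions as -log10 q does, so the authors' fold enrichments add no separate support. At the strongest summit of this region they also lay apart by treatment. They were 46.4, 47.9 and 49.5 in GFP untreated and 43.8, 54.9 and 63.0 in Nur77 untreated. With LPS they were 88.6, 130.1 and 193.5 in the GFP line and 191.7, 281.7 and 154.5 in the Nur77 line. The fold is measured against each library's own background and served only as a description. The implied heights, which are not scaled for depth, ran from 76 to 141 reads in untreated and from 124 to 473 reads in LPS libraries and so overlapped.

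The peak that covers the Cxcl2 start also differed in extent. Without LPS it was 1343, 1196 and 1447 bp long in the GFP line and 1455, 1200 and 1464 bp in the Nur77 line, and it ended 250 to 566 bp after the start of the gene. With LPS it was 5085, 7120 and 7393 bp long in the GFP line and 7270, 7089 and 5507 bp in the Nur77 line, and it ended 4019 to 6322 bp after the start. The far edges were thus apart, while the near edge lay between 854 and 1139 bp before the start in all 12 libraries. The peak covered 12.3% to 27.8% of the gene span without LPS and 100% of it in all 6 LPS libraries. The 2 sets of lengths did not overlap, and the median length of all peaks in a list did not differ in this way, at 611 to 775 bp in untreated and 594 to 755 bp in LPS lists.

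Covered bases of the whole region, which add a smaller separate peak 4.8 kb after the start in some libraries, lay higher in all 6 LPS libraries than in all 6 untreated ones, as was true of 1.07% of the common regions. Ranked by covered bases in place of -log10 q, an alternative added after the data were seen, the Cxcl2 region was 26.1 percentile points higher with LPS (exact permutation, adjusted p = 0.0741), and 0 of the 26378 regions passed 0.05 after adjustment.

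**Figure D2:**
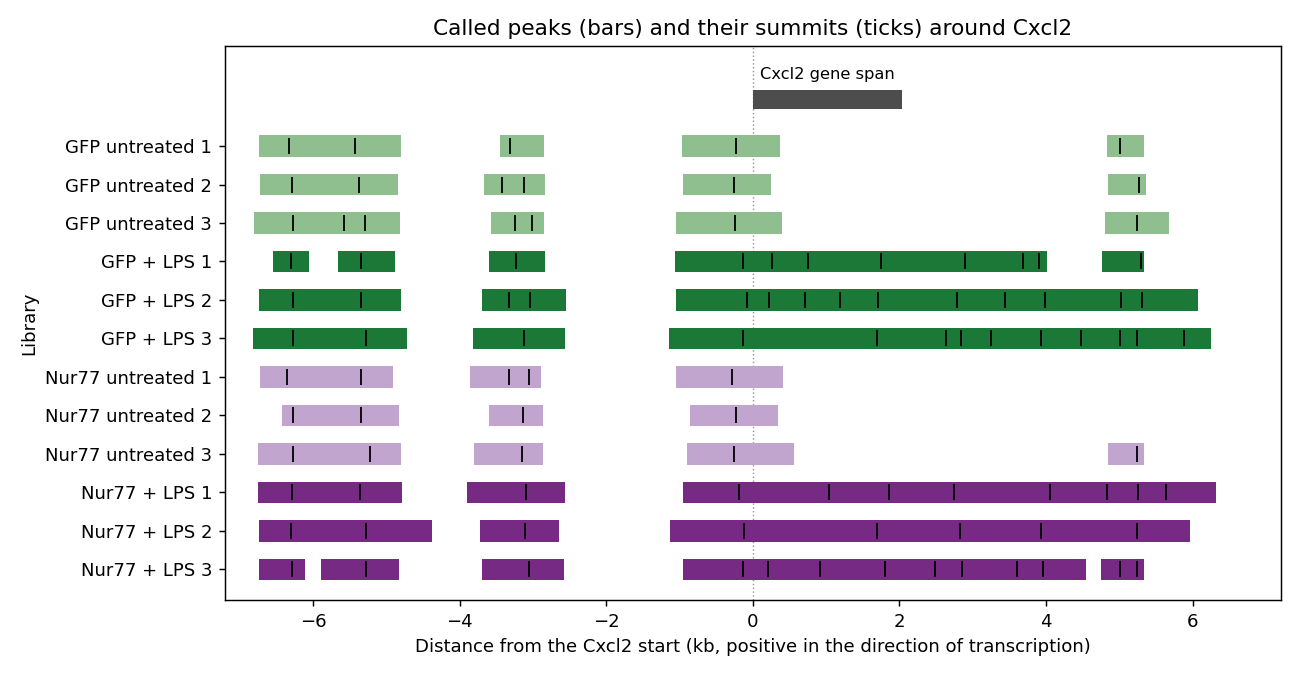
Called peaks (bars) and summits (ticks) in each of the 12 libraries by distance from the Cxcl2 start in kb, positive in the direction of transcription, with the gene span above. In the 6 LPS libraries the peak over the start runs 4019 to 6322 bp past it, against 250 to 566 bp in the 6 untreated libraries.

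Summits within the region followed the same division. The caller listed 2, 2 and 2 summits in GFP untreated and 1, 1 and 2 in Nur77 untreated, against 8, 10 and 10 in GFP with LPS and 8, 5 and 10 in Nur77 with LPS. Summits inside the Cxcl2 gene span numbered 0 in each untreated library and 1 to 4 in each LPS library, and those after its end numbered 0 or 1 without LPS and 3 to 8 with it. More summits in every LPS library than in any untreated one were seen in 0.212% of the common regions. No test of peak length or summit number was planned. A longer peak has room for more summits, so the 2 descriptions are not independent.

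The strongest summit lay nearer to the start of Cxcl2 after LPS. It was 229, 249 and 246 bp before the start in GFP untreated and 286, 226 and 255 bp before it in Nur77 untreated. With LPS it was 129, 76 and 126 bp before the start in the GFP line and 182, 115 and 136 bp before it in the Nur77 line. The treatments did not overlap in either line, and LPS and untreated summits lay wholly on either side of each other in 1.46% of the common regions. This comparison was chosen after the positions were seen and is given without a test. The NF-kB letters shown in capitals above, at -97 to -88, held 0 of the 12 summits: all 6 untreated and 5 of the 6 LPS summits lay farther from the start, and 1 LPS summit nearer to it. The position of a summit has no stated error.

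**Figure D3:**
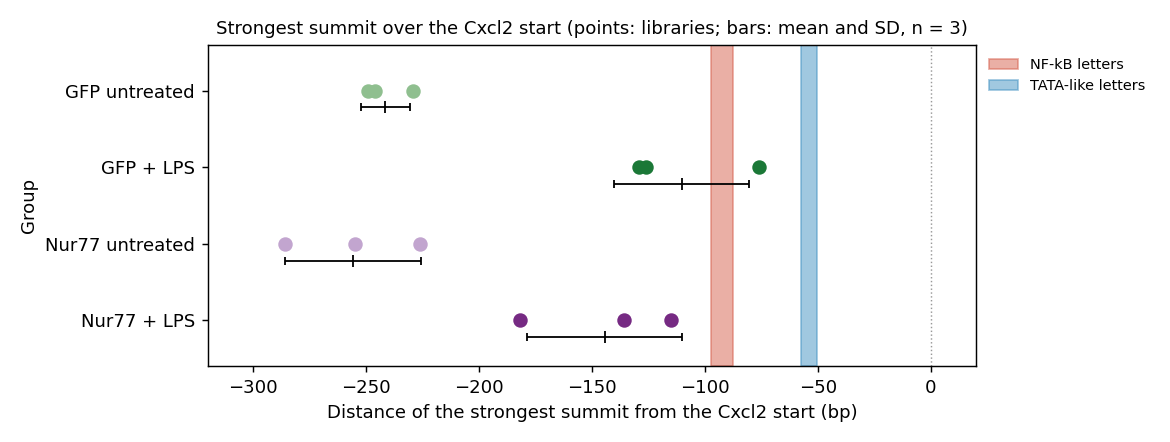
Distance of the strongest summit from the Cxcl2 start in bp, by group, with 1 point per library, the mean and SD of 3 libraries below each group, and bands at the NF-kB and TATA-like letters of the promoter. Untreated summits lie 226 to 286 bp and LPS summits 76 to 182 bp before the start.

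The region 2.5 kb before Cxcl2 (90900006 to 90901356, in no annotated gene) also rose in rank with LPS. Its percentile among common regions was 3.0, 6.2 and 9.2 in GFP untreated and 19.04, 19.8 and 14.1 in Nur77 untreated. With LPS it was 46.6, 43.3 and 44.8 in the GFP line and 52.3, 65.5 and 51.8 in the Nur77 line. All LPS libraries lay above all untreated ones, as in 6.31% of the common regions. The difference was 38.8 percentile points (untreated 11.9 ± 6.9, LPS 50.7 ± 8.1, SD, n = 6 each, exact permutation p = 0.00216, adjusted p = 0.0206). It did not pass by covered bases (22.5 points, exact permutation, adjusted p = 0.0741), by which 0 of the 26378 regions passed. In lists cut to equal length it was not called in every library and could not be ranked. With the replicate number as a block it did not pass either, nor did any of the 26378 regions. The 2 lines gave 38.8 ± 2.0 and 38.9 ± 4.8 points (GFP and Nur77, difference ± SE, n = 3 against 3, where the smallest possible exact p is 0.1).

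A broader region 4.4 kb before Cxcl2 and 4.0 kb after Cxcl1 (90897086 to 90899517) had higher means with LPS that did not pass. Its percentile was 29.5, 40.3 and 48.8 in GFP untreated and 62.9, 60.6 and 55.02 in GFP with LPS. For the Nur77 line it was 28.9, 22.8 and 34.2 without LPS and 51.8, 57.7 and 33.8 with it. The treatments overlapped through Nur77 with LPS, replicate 3, which lay below 3 of the 6 untreated libraries, while the other 5 LPS libraries lay above all untreated ones. The difference was 19.5 points (exact permutation p = 0.013, adjusted p = 0.0647), with an adjusted p of 0.036 without Nur77 with LPS, replicate 3, of 0.045 when labels were permuted within each line, and of 0.0085 in limma, and it ran from 0.036 to 0.108 over libraries left out in turn. Its strongest summit lay between -6331 and -5271 bp from the Cxcl2 start.

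The 2 constant regions before Cxcl1 stood at opposite ends of the scale. That 8.5 kb before the gene (90880983 to 90882755) was prominent throughout. Its percentile was 79.6, 75.1 and 79.03 in GFP untreated and 82.9, 86.98 and 86.3 in GFP with LPS. In the Nur77 line it was 82.99, 73.4 and 80.5 without LPS and 80.1, 82.96 and 87.2 with it, so the treatments overlapped in that line. The means were 78.4 ± 3.6 untreated and 84.4 ± 2.9 with LPS (SD, n = 6 each), and its difference of 6.0 points missed the threshold (exact permutation p = 0.0152, adjusted p = 0.0719). With libraries left out in turn the adjusted p of this test ran from 0.0467 (without Nur77 untreated, replicate 1) to 0.109, and 11 of 12 omissions left it unpassed. That 13.8 kb before the gene (90876154 to 90877405) was weak throughout, at 7.1 ± 6.0 and 8.4 ± 3.5 (adjusted p = 0.799 in the same permutation test). Cxcl1 itself, whose product is the mouse chemokine KC, had no peak over its promoter window in any list, LPS included.

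Near Cxcl5 and beyond Cxcl2 the constant regions did not pass the test. The region 16.7 kb before Cxcl5 (90741790 to 90742634) had percentiles of 54.3, 49.5 and 56.2 in GFP untreated and 65.8, 68.1 and 53.03 in GFP with LPS. In the Nur77 line they were 59.4, 43.1 and 50.99 without LPS and 65.6, 52.4 and 55.3 with it. The treatments overlapped in both lines, at 52.3 ± 5.7 untreated and 60.04 ± 7.2 with LPS (SD, n = 6 each, exact permutation p = 0.0693, adjusted p = 0.198). The region over the start of Mthfd2l, a gene of mitochondrial folate metabolism 24.6 kb after Cxcl2 (90930534 to 90932168), was at 49.7 ± 8.2 and 51.0 ± 4.8 (adjusted p = 0.875 in the same permutation test). Over the 7 constant regions the median difference with LPS was 7.79 points, against a median of -0.99 over all 26378 regions. Of the 7 differences 2 passed the test.

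**Figure D4:**
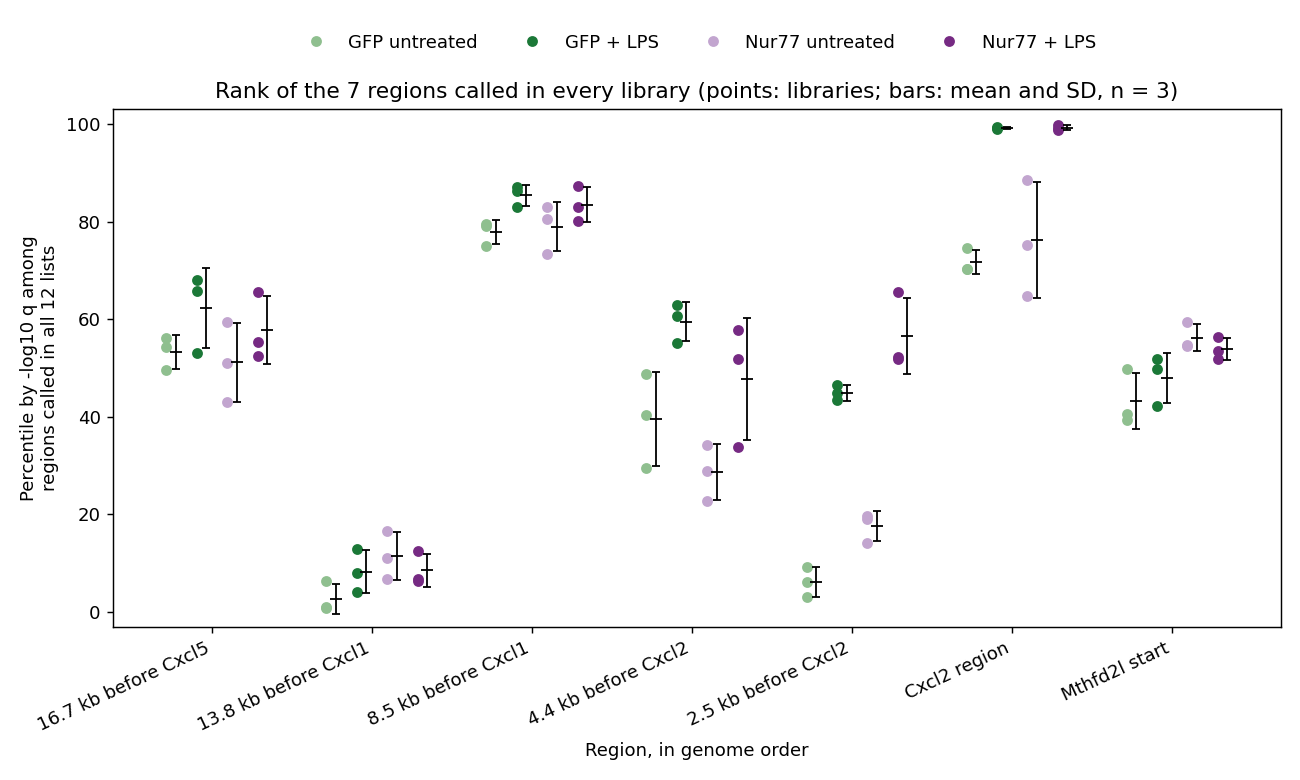
Percentile by -log10 q among the 26378 regions called in all 12 lists (vertical axis), for the 7 such regions near the genes (horizontal axis), with points for libraries and bars for the mean and SD of 3 libraries. The regions over and 2.5 kb before Cxcl2 are higher in every LPS library than in any untreated one, as are 6.31% of the 26378, and the others overlap.

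Calls of the 7 variable regions were compared by two-sided Fisher's exact tests over 6 against 6 libraries, run on all 20292 regions called in 4 to 8 lists. With Benjamini-Hochberg adjustment 0 of the 7 regions passed for LPS, and 0 of the 20292 did. At an unadjusted p under 0.05 there were 0 of the 7 more often and 0 less often called, where 5.56% and 1.48% of all tested regions were. A region called in 4 lists cannot give a p below 0.0606 in this test, so it could not pass. This holds for the regions 41.0 kb before Cxcl5 and over the starts of Pf4 and Cxcl3. Within a line, regions called in 3 of 3 LPS and 0 of 3 untreated libraries made up 1.96% (GFP) and 1.94% (Nur77) of all 76042 regions and 0 of the 14, and the opposite pattern 1.02% and 0.46% of all and 0 of the 14.

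The only variable region called in LPS libraries alone lay 41.0 kb before Cxcl5 (90717949 to 90718313), inside the long non-coding RNA gene Gm36084. It was called in GFP with LPS, replicates 2 and 3, at percentiles 51.0 and 50.6 of their own lists, and in Nur77 with LPS, replicates 1 and 3, at 24.0 and 23.9. The LPS libraries without a call, GFP replicate 1 and Nur77 replicate 2, had the shortest LPS lists (48275 and 44790 peaks). The call in 4 of 6 LPS and 0 of 6 untreated libraries gave an exact p of 0.0606 (adjusted p = 0.428), the smallest that a region in 4 lists can give.

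The Nur77 line was then compared with the GFP line. Near these genes the tests as designed passed 0 of 14 regions in either direction. The lowest unadjusted p was that of the region at the Mthfd2l start in the rank test and that of a weak region 33.2 kb before Cxcl1 in the call test. Among the constant regions 437 (1.66%) ranked higher and 940 (3.56%) lower in the Nur77 line over all 26378 in the 6 against 6 permutation test, and 0 of the 7. At an unadjusted p under 0.05 in the same test 1 of the 7 was higher (10.1% of all) and 0 were lower (10.7% of all).

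The region 2.5 kb before Cxcl2 ranked higher in all 3 Nur77 than in all 3 GFP libraries within each treatment, by 11.5 ± 2.5 points untreated and 11.7 ± 4.6 points with LPS (difference ± SE, n = 3 against 3), as did 13% and 13.7% of all common regions in each. When labels were permuted over all 12 libraries the difference of 11.6 points did not pass (exact permutation p = 0.392, adjusted p = 0.683), since both treatments are then pooled. When they were permuted within each treatment it passed narrowly (exact permutation, adjusted p = 0.0466), as did 4.29% of all regions in the same direction, and limma on normal scores of the ranks, added after the data were seen, gave an adjusted p of 0.00981 (6.62% of all). The region 24.6 kb after Cxcl2 at the Mthfd2l start was 9.4 points higher in the Nur77 line (45.6 ± 5.5 against 55.1 ± 2.6, SD, n = 6 each, exact permutation p = 0.00433, adjusted p = 0.0611).

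For Cxcl2 itself the lines did not separate. After LPS its region stood at 99.15 ± 0.17 in the GFP and 99.21 ± 0.50 in the Nur77 line, and before LPS at 71.7 ± 2.5 and 76.2 ± 11.9 (SD, n = 3 each), the adjusted p of the line being 0.935 in the permutation test. A percentile this close to 100 leaves little room for a difference, and the deposited folds with LPS overlapped between the lines, at 88.6 to 193.5 and 154.5 to 281.7. The length of the start peak with LPS was 6533 ± 1261 bp in the GFP and 6622 ± 970 bp in the Nur77 line (SD, n = 3 each).

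The region 33.2 kb before Cxcl1 (90857648 to 90858021, intergenic) was called in 5 of 6 Nur77 and 0 of 6 GFP libraries. In the Nur77 line its percentile within the own list was 2.1 and 5.0 in untreated replicates 1 and 3 and 13.3, 5.2 and 15.1 in the 3 LPS libraries, at implied summit heights of 6, 9, 10, 7 and 9 reads. It was thus at or just above the weakest summit listed, and the 1 Nur77 library without it had the shortest list of all. It was absent from the GFP with LPS list of 81467 peaks, the longest, and the part of list length in this pattern was not tested. The exact p was 0.0152 (adjusted p = 0.19), and of the 14 regions it alone was called in 3 of 3 Nur77 and 0 of 3 GFP libraries after LPS, as were 0.304% of all regions. The reverse after LPS was seen in 0 of the 14 (2.18% of all). Before LPS 0 of the 14 were called in all Nur77 and no GFP libraries (0.308% of all) and 0 in the reverse (3.4% of all). In the Fisher tests over both treatments 1 of the 7 variable regions was more often called in the Nur77 line at an unadjusted p under 0.05 (0.651% of all) and 0 less often (7.32% of all).

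The region over the start of Cxcl3 (90785453 to 90786207), the paralogue whose promoter is shown first above, had the opposite pattern. It was called in 4 of 6 GFP libraries, untreated replicates 2 and 3 at percentiles 11.7 and 5.7 and LPS replicates 2 and 3 at 2.4 and 19.2, and in 0 of 6 Nur77 libraries. Implied summit heights were 9, 9, 6 and 12 reads, and the 4 GFP lists concerned held 56888 to 81467 peaks, against 36184 to 59858 in the Nur77 line. The exact p was 0.0606 (adjusted p = 0.345), the smallest that a region in 4 lists can give, and the part of list length in this difference was not tested. LPS did not separate its calls, at 2 of 6 libraries each.

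The 4 remaining variable regions separated no groups. A region 37.8 kb before Cxcl1 (90852951 to 90853456) was called in 8 libraries, 5 untreated and 3 with LPS, and ranked highest in Nur77 untreated, replicates 1 and 3, at percentiles 70.1 and 54.95 against 9.5 to 41.9 in the other 6. One 28.7 kb before Cxcl1 (90861660 to 90862550) was called in 5 of 6 GFP and 2 of 6 Nur77 libraries (exact p = 0.242, adjusted p = 0.762) at percentiles of 15.8 to 53.2. One over the start of Pf4, which encodes platelet factor 4 (90771357 to 90772615), was called in 1 library of each group, and one 8.1 kb before Cxcl3 (90777530 to 90778016) in 5 libraries, both at percentiles of 9.07 to 37.5.

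The difference between the 2 LPS responses was tested by permuting the line labels within each treatment, and 0 of the 7 constant regions passed, nor did any of the 26378 after adjustment. The lowest p of the 7 was 0.15 and the smallest this test can give is 0.005; at an unadjusted p under 0.05 in this permutation test 2.26% of all regions were higher and 2.04% lower in the Nur77 line, and 0 of the 7. Limma on normal scores passed 0 of the 7 and 0 of all regions as well. Its lowest adjusted p among the 7 was 0.619 (limma, unadjusted p = 0.0284), for the region 13.8 kb before Cxcl1. There the response of the Nur77 line minus that of the GFP line was -0.81 on the normal scores. In the permutation test the same difference was -8.54 percentile points (p = 0.15). For the Cxcl2 region the responses were 27.5 ± 1.4 points in the GFP and 23.0 ± 6.9 points in the Nur77 line (difference ± SE, n = 3 against 3).

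Other genes of the pathway were examined by the same rank test within 50 kb of each gene, to be read against 9.45% of all 26378 regions higher, 8.13% lower and a median difference of -0.99 with LPS. Around 11 other early LPS cytokine and regulator genes, 19 of 49 constant regions rose with LPS and 1 fell, with a median difference of 3.59 points. Around other CXC ligand genes (7 of 8 matched) 5 of 23 rose and 2 fell, with a median of 0.20, and around receptor and granulocyte factor genes 3 of 21 rose and 1 fell, with a median of 1.28. Of single genes, picked from these lists after their values were seen, the region at Cxcl10, which encodes an attractant of activated T cells, went from 12.6 ± 9.2 to 84.8 ± 6.4, and that at Tnf from 97.8 ± 0.78 to 99.94 ± 0.02 (SD, n = 6 each, permutation test, adjusted p = 0.0206 for each). A region at Cxcr2, the gene of the receptor for the member chemokines, went from 2.7 ± 4.6 to 26.3 ± 17.0 (SD, n = 6 each, adjusted p = 0.0317 in that test), with wide scatter. For the Nur77 line against GFP, 0 regions passed around the ligand and receptor lists and 1 of 49 around the cytokine list, a lower one at Il6, where 1.66% of all regions were higher and 3.56% lower, shares to which 1 of 49 is near.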

How the data were processed

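ATAC-seq peak lists of 12 libraries (4 groups of 3) were used. The submitters' processing notes name cutadapt 2.6, DiffBind 3.0.15 and the mm10 build. The aligner and caller were not given in the sources used here. The deposited peaks carry names that speak of a q of 0.001, a mapping quality of 20 and reads freed of duplicates and of mitochondrial DNA. Each deposited list gives, per summit, a score, a fold enrichment (a ratio to background), a -log10 p and a -log10 q as the authors' caller wrote them, and a summit offset, and each list was called on 1 library. The score and -log10 p were not used. Read totals are not in these lists, so depth is known only through the number of peaks and the implied background height, taken from the even spacing of the fold values (tolerance 0.1 reads, 100% of values on the spacing in each list). Intervals on calls are not given for this reason.

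Summits of 1 peak were collapsed, and a region was called in a library where a peak overlapped it by at least 1 bp. Gene positions came from RefSeq (GRCm38.p6). Tests were written in Python 3.11.15 with numpy 2.4.6, pandas 2.3.3 and scipy 1.17.1, with limma 3.58.1 as an alternative, fitted to all regions with Benjamini-Hochberg adjustment at 0.05, and tested on simulated data. Every member region is accounted for, with values by library for those at a member gene, those called in 3 of 3 against 0 of 3 libraries, those past a test and the 3 of highest mean percentile. Other genes come from the lists, are named for a region within 1000 bp called in all 12 lists, and were picked after their values were seen. Alternatives were lists of equal length, a stricter q, 25% cover, a 25 kb limit, a replicate block, other permutations, ranks by fold or covered bases, unlisted regions as lowest rank, and each library left out. Genes and lists were chosen with earlier results of these data known. Deviations of same-numbered libraries were at most weakly correlated (18 pairs, r from -0.18 to 0.16, 2 above 0.1). In 8 of the 18 the own number gave the best match. These correlations cannot decide whether the numbers pair the samples, which the sources used here do not state.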

Additional observations from a re-analysis of the deposited data

Results flagged for a closer look

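Outside the 14 regions, 3 regions within 50 kb of the genes were called in 1 LPS list and in no untreated list. All 3 came from GFP with LPS, replicate 3, whose list is the longest at 81467 peaks, and the part of list length was not tested. Another 2 regions were each called in 1 untreated list only. A search for a library far from the others, in 28 groups of 6 libraries, found 0.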

How the results depend on the processing

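The Cxcl2 region and the region 2.5 kb before it ranked higher with LPS under each alternative that ranked them. The count of regions ranking higher with LPS was 2, and 1 in lists of equal length, where the 2.5 kb region was no longer in every list, 1 with 25% cover, where the Cxcl2 region was not called in every list, 3 with labels permuted within each line and 3 in limma, the third being the region 4.4 kb before Cxcl2, 0 by covered bases (adjusted p = 0.0741 for the Cxcl2 and 2.5 kb regions) and 2 to 3 with 1 library left out. With the replicate number as a block it was 0 (adjusted p = 0.0604 for both), and the block changed no other call near the genes, but 0 of all 26378 regions passed under it. Ranks by fold were identical to those by -log10 q. The count higher in the Nur77 line was 0, and 1 (2.5 kb before Cxcl2) with labels permuted within treatment and 1 in limma. The region called in all Nur77 and no GFP libraries after LPS (1) fell to 0 in lists of equal length, at -log10 q of at least 5 and within 25 kb, which its distance fixes. With 1 library left out, regions gained or lost between groups ran from 0 to 1 for LPS in the GFP line (gained without GFP with LPS, replicate 1, lost without its replicate 3), for LPS gained in the Nur77 line (without LPS replicate 2), for untreated Nur77 against GFP (gained without Nur77 replicate 2, lost without GFP or Nur77 replicate 1) and for those lost after LPS (without GFP replicate 1). Unpassed differences changed sign: Mthfd2l with LPS was -0.87 and -0.62 without GFP untreated, replicates 2 and 3 (up to 2.89 without others). For Nur77 minus GFP by covered bases, values were 5.96 (16.7 kb before Cxcl5), -8.18 and 4.86 (13.8 and 8.5 kb before Cxcl1), 2.88 (4.4 kb before Cxcl2) and -5.51 (Cxcl2 region). With 1 library left out they were 0.61, 0.48 and 0.99 (from -1.77) for the region 8.5 kb before Cxcl1 and -0.76, -0.75, -0.011 and -0.14 (up to 6.85) for the Cxcl2 region. The cause of these shifts was not tested. Unequal list lengths limit what calls of weak regions can show.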

Other observations

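In the wider cluster, 8 neighbouring genes had 10 constant regions within 50 kb, some shared with the regions above, of which 4 rose with LPS and 0 fell in the rank test (9.45% and 8.13% of all). The 4 include the Cxcl2 region and the region 2.5 kb before it, already described, which lie within 50 kb of Mthfd2l. Of single genes, picked after their values were seen, a region at Ereg, which encodes the growth factor epiregulin, went from 18.2 ± 11.5 to 42.3 ± 8.8 in percentile (SD, n = 6 each, permutation test, adjusted p = 0.0406). A region at Rassf6 went from 66.2 ± 7.3 to 79.5 ± 3.0 (adjusted p = 0.0206 in the same permutation test).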
